A study of Oryzias latipes with 18 samples.

Results

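The genes described here are the medaka genes with a systematic nuclear receptor name, that is, genes whose symbol begins with NR, a subfamily digit, a letter and a member digit. In the table of testis expression, 28 of 22941 genes carried such a name. Of these, 25 had a mean of at least 10 normalized reads over the 18 libraries, as had 18792 genes in all. The 3 under that level were nr2e3 with a mean of 7.72, nr4a2a with 3.71 and a second NR5A1 gene with 3.19. The members closest above it were nr2e1 with 12.6 and NR2F6 with 12.7. Subfamily NR1 had 6 members, NR2 had 10, NR3 had 3, NR4 had 2, NR5 had 3, NR6 had 1 and NR0 had 0. The name rule also takes in nr2c2ap, which encodes a protein associated with the receptor TR4 and is not itself a receptor. A pair of genes, ENSORLG00000001565 and ENSORLG00000006022, shared the symbol nr3c1 and are called nr3c1-1565 and nr3c1-6022 by the last digits of their identifiers.

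Testes came from medaka (Oryzias latipes) of 2 lineages. The control lineage had no ancestral bisphenol A, and the BPA lineage descended from fish that met 10 µg/L bisphenol A (BPA) as embryos 4 generations before. Fish of each lineage spent 21 days with PFOS (perfluorooctane sulfonate, a persistent fluorinated surfactant) at 0, 0.002 or 0.02 mg/L, which made 6 groups, each of 3 libraries labelled as biological replicates. The sources used here do not give the genotype, strain or age of the fish, or whether a library is 1 fish or a pool.

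Nuclear receptors are transcription factors, most of which bind a small lipophilic ligand such as a steroid, an oxysterol, a bile acid or haem, and then recruit coactivators or corepressors to their target genes. Orphan receptors have no established natural ligand. In the vertebrate testis they carry the signals of steroid hormones and stress, direct steroid synthesis in the somatic cells, and take part in germ cell development. Most teleost fish keep a pair of glucocorticoid receptor genes and several further paralogues that arose from a genome duplication.

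Libraries held 23.7 to 47.7 M gene reads. The library labelled control lineage PFOS 0.002 replicate 2 was set apart: its egg-coat transcripts zpax1 and zp3f.1 had 210333 and 205014 normalized reads, against 42.9 to 2639 and 8.28 to 2249 in the other 17. There dmy, the male sex-determining gene, was at 489 normalized reads, against 1465 to 4470 elsewhere, and ddx4, a germ cell gene, at 28213, against 21983 to 49655. Comparisons below use the other 17 libraries, so that the control lineage at 0.002 mg/L has n = 2. The control lineage at 0 mg/L, reference of many comparisons, also differed within itself: 16 markers of pancreas, gut and kidney summed to 42417, 4817 and 42195 normalized reads in replicates 1, 2 and 3, against 416 to 2004 in the other 14 libraries. The intestinal cadherin cdh17 ranged from 10.6 to 6201 normalized reads over the 17 libraries and the kidney cotransporter slc12a3 from 4.90 to 31800. In replicates 1, 2 and 3 of the unexposed control lineage cdh17 had 2578, 84.2 and 6201, and slc12a3 had 23.6, 68.0 and 31800. Of 8 oocyte markers tested, 5 were higher at 0.02 mg/L than at 0 mg/L in the control lineage, as were 1155 of all 18792 genes. The sum of these markers there was 875 to 6923 normalized reads against 311 to 424. In the BPA lineage the sum was 593 to 2394 at 0.02 mg/L against 547 to 824 at 0 mg/L. The part of these markers in the results below was not tested.

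Differences are on the log2(normalized reads + 1) scale with their SE, tested with limma across all 18792 genes, and a gene passed at a Benjamini-Hochberg adjusted p under 0.05. Group values are mean ± SD of normalized reads. In tissue RNA, fewer cells of a type and less RNA per cell cannot be told apart. No level is compared between genes, because transcript lengths were not used here.

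Few of the 25 genes passed in any comparison. In the control lineage 1 was lower at 0.002 mg/L than without PFOS (nr2f1a), where 4.59% of all genes passed and 2.74% were lower. At 0.02 mg/L 2 were lower (nr3c1-6022 and nr2f2), where 12.8% of all genes passed and 6.67% were lower. In the BPA lineage 0 passed at 0.002 mg/L, where 0% of all genes passed, and 0 at 0.02 mg/L, where 0.41% passed. At an unadjusted p under 0.05 these last counts were 1 and 5 members, against 1795 and 3458 of all 18792 genes. For both, edgeR called 0 members. Without PFOS, 2 genes were lower in the BPA lineage than in the control lineage (nr3c1-6022 and nr2f2), where 10.3% of all genes passed and 5.97% were lower. Between lineages 0 members passed at 0.002 mg/L (0% of all genes, edgeR 0) and 0 at 0.02 mg/L (0.0213% of all genes, edgeR 0). At an unadjusted p under 0.05 these counts were 4 and 3 members, against 1583 and 2270 of all 18792 genes. The interaction asks whether the response to PFOS differed between the lineages. It passed for 0 members at 0.002 mg/L (0.899% of all genes, edgeR 0). At an unadjusted p under 0.05 that count was 5 members, against 4379 of all 18792 genes. The interaction was higher for 2 members at 0.02 mg/L (nr3c1-6022 and nr1d2b), where 14.2% of all genes passed and 7.89% were higher. The members' shares were near those of all genes.

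**Figure D1:**
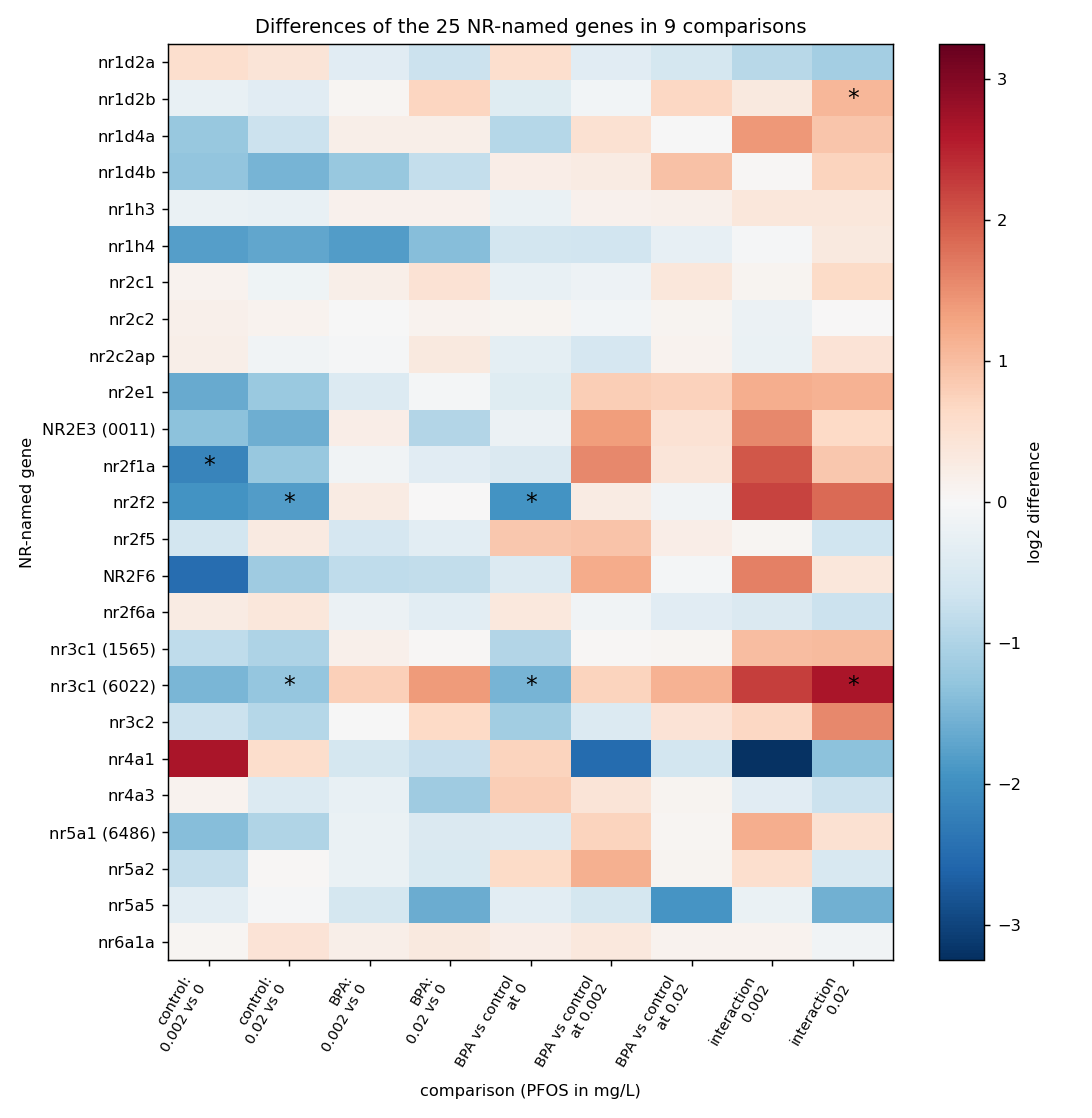
Log2 differences of the 25 NR-named genes (vertical axis) in the 9 comparisons (horizontal axis, PFOS in mg/L) from 17 libraries, with blue for negative, red for positive and an asterisk where the limma adjusted p was under 0.05. The 7 asterisks fall on nr3c1-6022 (3), nr2f2 (2), nr2f1a (1) and nr1d2b (1). Both control lineage columns hold mostly blue cells, 17 and 18 of 25, against 49.3% and 48.5% of all genes. The columns for the BPA lineage at 0.002 mg/L and for the lineages at 0 mg/L each hold 16 of 25, against 55% and 45.7% of all genes.

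Most of the members lay lower with PFOS in the control lineage, passed or not. For the BPA lineage the share of members that was negative lay closer to that of all genes. In the control lineage 17 of 25 log2 differences were negative at 0.002 mg/L (49.3% of all genes), with a median of -0.70 against 0.01 over all genes. At 0.02 mg/L 18 of 25 were negative (48.5% of all genes), with a median of -0.45 against 0.03. In the BPA lineage 16 and 14 of 25 were negative (55% and 54.4% of all genes), with medians of -0.11 and -0.35 against -0.05 and -0.06. Under TMM scaling 13 of 25 were negative at 0.002 mg/L in that lineage (48.8% of all genes). The interaction at 0.02 mg/L had a median of 0.43 against -0.10 over all genes, with 8 of 25 negative. The comparisons share libraries: the control lineage at 0 mg/L enters both PFOS comparisons of that lineage, the lineage comparison at 0 mg/L and both interactions.

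Complete separation of the compared groups was frequent among the members and among all genes. The ranges of the compared groups did not overlap for 14 of 25 members at 0.002 mg/L in the control lineage (48.7% of all genes), 8 at 0.02 mg/L (36.7%), 8 between lineages at 0 mg/L (33.5%), 12 between lineages at 0.002 mg/L (33.3%) and 3 between lineages at 0.02 mg/L (11.2%). In the BPA lineage it was 5 at 0.002 mg/L (20.8%) and 8 at 0.02 mg/L (19.3%). Replicates of the members spread with a median SD of 0.52 on the log2 scale within groups, from 0.18 for nr2c2 to 1.337 for nr4a1, against 0.41 over all genes.

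Subfamily NR3 held the corticosteroid receptors, and nr3c1-6022 passed in 3 of the 9 comparisons, more than any other member. This glucocorticoid receptor gene, which in fish binds cortisol, had 178, 102 and 119 normalized reads in the control lineage at 0 mg/L, then 52.9, 53.7 and 53.1 at 0.02 mg/L. The order was opposite in the BPA lineage, with 54.0, 25.4 and 63.9 at 0 mg/L, then 121, 147 and 90.6 at 0.02 mg/L. Within each lineage the ranges at 0 and 0.02 mg/L did not overlap. At 0.002 mg/L the control lineage had 66.1 and 31.8, below all 3 of its libraries at 0 mg/L, and the BPA lineage had 70.8, 90.6 and 70.4, above all 3 of its own.

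The interaction for nr3c1-6022 at 0.02 mg/L was 2.65 ± 0.56 (95% interval 1.45 to 3.84, adjusted p = 0.00771, limma). It passed in each of 19 alternatives, which were all 18 libraries, a pseudocount of 5, no filter on low values, TMM scaling, edgeR on recovered reads, only the 4 groups being compared, a block on the replicate number, and leaving out any 1 of the 12 libraries. Its log2 difference ran there from 2.25 to 2.90. Of the unexposed control libraries, replicate 2 had the lowest sum of pancreas, gut and kidney markers. With it as the only unexposed control library the log2 difference was 2.30, and a group of 1 library gives an effect size only. The direct differences had less room. In the control lineage nr3c1-6022 fell at 0.02 mg/L by 1.27 ± 0.40 (133 ± 40.0 to 53.2 ± 0.403, n = 3 each, adjusted p = 0.0469), and no longer passed without any 1 of the 6 libraries compared, with adjusted p from 0.0535 (without control 0 mg/L replicate 2) to 0.173 (without replicate 1). Without PFOS it was lower in the BPA lineage, with a log2 difference of -1.52 ± 0.40 (47.8 ± 20.03, n = 3, adjusted p = 0.0268), and no longer passed without control replicate 1 (0.124) or 3 (0.0559) or BPA replicate 1 (0.0574) or 2 (0.151). With all 18 libraries both calls were lost (0.150 and 0.114) at unchanged log2 differences, since the added library is in neither comparison and changes only the estimated spread. Over all genes 13 and 4 passed in that fit, against 2409 and 1927 with 17 libraries. Both calls were also lost with only the compared groups (0.0632 and 0.0634). The first was also lost without the filter (0.0545) and under the replicate block (0.0622). The increase in the BPA lineage at 0.02 mg/L, 1.38 ± 0.40 to 120 ± 28.05, did not pass by itself (adjusted p = 0.0995). At 0.002 mg/L neither the fall in the control lineage nor the interaction (2.25) passed. Among alternatives with more than 1 library in each group, the fall passed only with all 18 libraries (-1.60, adjusted p = 0.0406). The interaction passed there only with the compared groups alone (0.0454) and without BPA 0 mg/L replicate 3 (0.0336).

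The other NR3 genes lay the same way in part, without passing. The second glucocorticoid receptor gene, nr3c1-1565, had 195, 181 and 240 normalized reads in the control lineage at 0 mg/L, 108 and 120 at 0.002 mg/L, then 142, 112 and 65.6 at 0.02 mg/L. In the BPA lineage it had 75.9, 96.7 and 156, then 127, 92.9 and 137, then 193, 162 and 38.6. The 3 unexposed control libraries exceeded all other libraries of nr3c1-1565 except BPA lineage 0.02 mg/L replicate 1, which lay among them, and the BPA groups overlapped each other. Its interaction at 0.02 mg/L was 1.03 ± 0.69 (adjusted p = 0.329), and 1.75 without BPA lineage 0.02 mg/L replicate 3, its lowest library, where it passed (adjusted p = 0.0238). The mineralocorticoid receptor nr3c2 went from 149 ± 65.7 to 75.0 ± 20.02 normalized reads at 0.02 mg/L in the control lineage and from 65.9 ± 21.8 to 105 ± 40.2 in the BPA lineage, with an interaction of 1.57 ± 0.56 (adjusted p = 0.0703) that passed without BPA 0 mg/L replicate 3 (0.0409) or 0.02 mg/L replicate 1 (0.0376). Reads of close paralogues such as these may be split or shared between them, since the sources used here do not name the read counter.

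Genes that glucocorticoids regulate in vertebrates, with the chaperones of their receptor, form a list of which 16 were tested, and 3 passed in any comparison. In the control lineage 1 was lower at 0.002 mg/L (2.74% of all genes) and 3 at 0.02 mg/L (6.67%). List medians were -0.46 and -0.18, with 0 higher. The gene klf9 was lower in the unexposed BPA lineage (5.97% of all genes) and higher in the interaction at 0.02 mg/L (7.89%). The kinase SGK1, a classic corticosteroid-induced gene, had 1245 to 1417 normalized reads in the control lineage at 0 mg/L, above the 250 to 893 of the other 14 libraries. It fell by 1.79 ± 0.35 at 0.02 mg/L (adjusted p = 0.00969), a call lost with all 18 libraries (0.123), and without control 0 mg/L replicate 1 or 0.02 mg/L replicate 3. The transcription factor klf9, induced by glucocorticoids in several vertebrates, had 471 ± 77.1 normalized reads in the unexposed control lineage, 134 ± 94.1 at 0.02 mg/L, 87.3 ± 38.0 in the unexposed BPA lineage and 273 ± 33.0 in the BPA lineage at 0.02 mg/L. Its interaction was 3.89 ± 0.83 (adjusted p = 0.00780) and passed in 18 of the same 19 alternatives, all but the one with 18 libraries (0.0618). The third, hsd11b1la, annotated as like the enzyme that regenerates active glucocorticoid, fell by 1.45 ± 0.39 at 0.02 mg/L in the control lineage (adjusted p = 0.0272), a call lost with all 18 libraries (0.172), with only the compared groups, and without control 0 mg/L replicate 1 or 3 or 0.02 mg/L replicate 1 or 3. In the BPA lineage SGK1 went from 767 ± 162 normalized reads without PFOS to 487 ± 139 at 0.02 mg/L. There hsd11b1la went from 122 ± 33.7 to 65.3 ± 16.3. Both lay opposite to klf9 and to the glucocorticoid receptor gene whose interaction passed, which were higher there with PFOS. None of the listed genes passed in that comparison.

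**Figure D2:**
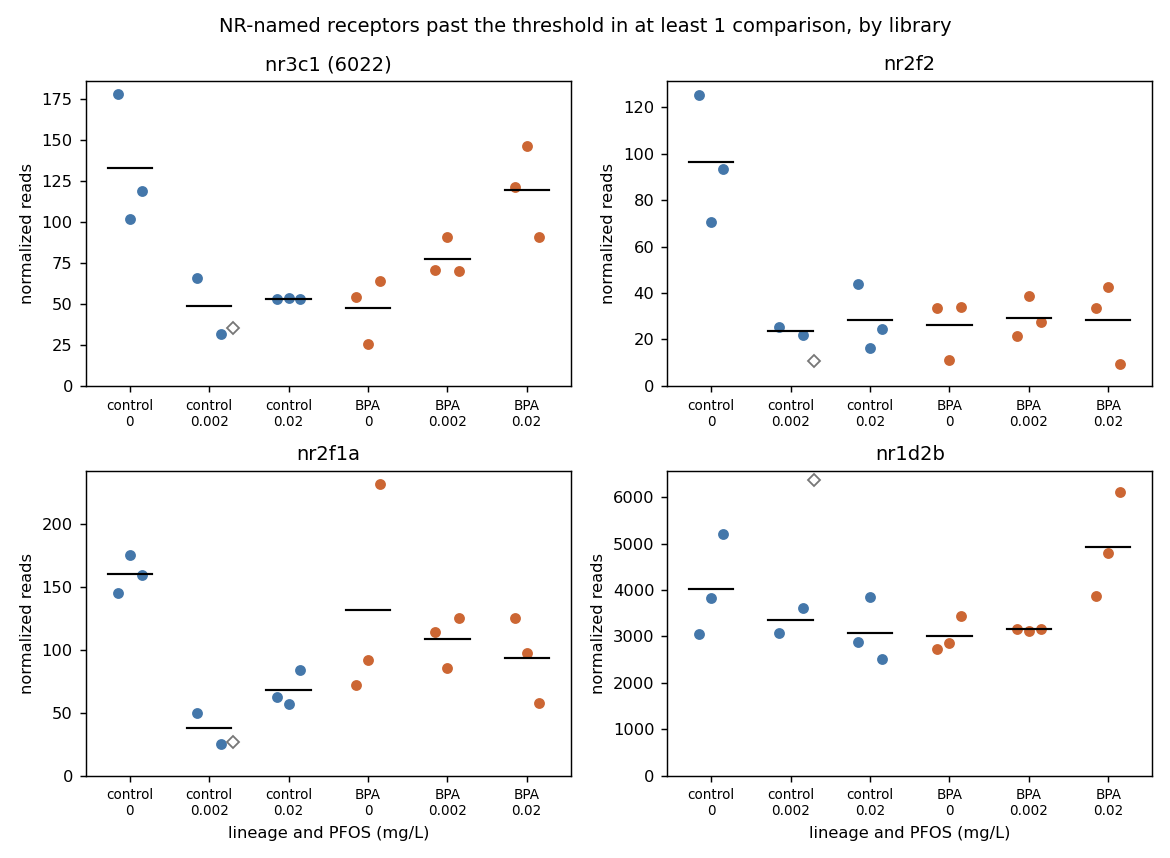
Normalized reads (vertical axis, from 0) of the 4 genes that passed in at least 1 comparison, by lineage and PFOS dose in mg/L (horizontal axis), with a dot per library, blue for the control and orange for the BPA lineage, a bar at the mean of the fitted libraries and an open diamond for the library set apart. The nr3c1-6022 dots fall from 102 to 178 down to about 53 in the control lineage and rise from 25.4 to 63.9 up to 90.6 to 147 in the BPA lineage, while nr2f2 is high only in the unexposed control lineage.

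The COUP-TF receptors of family NR2F are orphan receptors that act mostly as repressors, and in the mouse testis Nr2f2 marks interstitial cells. For nr2f2 the 3 unexposed control libraries, at 125, 70.4 and 93.3 normalized reads, lay above all 14 others, which 2.38% of all genes did and 1 of 25 members. The other control groups had 25.3 and 21.8 at 0.002 mg/L, then 44.1, 16.2 and 24.3 at 0.02 mg/L. The BPA lineage had 33.7, 11.3 and 33.9 at 0 mg/L, 21.3, 38.8 and 27.4 at 0.002 mg/L, then 33.6, 42.8 and 9.26 at 0.02 mg/L. The 5 lower groups overlapped each other.

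In the control lineage nr2f2 fell at 0.02 mg/L by 1.81 ± 0.58 (96.4 ± 27.6 to 28.2 ± 14.3, n = 3 each, adjusted p = 0.0489, limma), a call lost without any 1 of the 6 libraries (adjusted p from 0.0611, without control 0 mg/L replicate 2, to 0.161, without 0.02 mg/L replicate 3). Without PFOS it was lower in the BPA lineage, with a log2 difference of -1.95 ± 0.58 (26.3 ± 13.01, n = 3, adjusted p = 0.0416), a call lost without control replicate 1 (0.151), 2 (0.0527) or 3 (0.0923) or BPA replicate 1 (0.0716) or 2 (0.210). With all 18 libraries both calls were lost (0.151 and 0.145), again at unchanged log2 differences. With replicate 2 as the only unexposed control library the log2 differences were -1.40 and -1.54. The first call was also lost in edgeR (0.0523), without the filter (0.0548), with only the compared groups (0.0521) and under the replicate block (0.0621), and the second under the block (0.0545). At 0.002 mg/L in the control lineage the log2 difference of nr2f2 was -1.95 ± 0.65, adjusted p = 0.0797. It passed only with all 18 libraries, which include the library set apart (-2.30, adjusted p = 0.0406). Within the BPA lineage the nr2f2 difference was 0.25 ± 0.58 and 0.02 ± 0.58. Without BPA 0.02 mg/L replicate 3 the interaction at 0.02 mg/L passed (2.47, adjusted p = 0.0274).

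The paralogue nr2f1a had 145, 175 and 159 normalized reads in the unexposed control lineage, 49.9 and 25.1 at 0.002 mg/L, then 62.7, 57.2 and 84.1 at 0.02 mg/L. In the BPA lineage it had 71.7, 92.0 and 232 at 0 mg/L, 114, 85.3 and 125 at 0.002 mg/L, then 125, 97.5 and 57.6 at 0.02 mg/L. The control groups with PFOS lay wholly below the unexposed one, and the BPA groups overlapped. The fall at 0.002 mg/L was 2.14 ± 0.48 (adjusted p = 0.0299, n = 2 against 3), a call lost without control 0 mg/L replicate 1 (0.106) or 3 (0.0687) or 0.002 mg/L replicate 3 (0.403), with only the compared groups (0.0597) and under the replicate block (0.0518). At 0.02 mg/L the log2 difference was -1.24 ± 0.43 (adjusted p = 0.0661).

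Markers of smooth muscle and connective tissue summed lower with PFOS in both lineages. Of 11 tested, 4 were lower at 0.002 mg/L (2.74% of all genes) and 4 at 0.02 mg/L (6.67%) in the control lineage, with medians of -1.29 and -0.73. Their summed level was 16090 to 25225 normalized reads at 0 mg/L, 7576 to 12591 at 0.002 mg/L and 9046 to 15026 at 0.02 mg/L, with 0 markers at 0. Their part in the falls of nr2f1a and nr2f2 was not tested. In the unexposed BPA lineage the same markers summed to 21967 to 27435, and 1 was higher (col1a2) and 0 were lower than in the unexposed control lineage. With PFOS in that lineage they summed to 12260 to 13908 at 0.002 mg/L and 8922 to 17839 at 0.02 mg/L, with medians of -0.71 and -0.67 and 0 and 1 (tagln) called lower.

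The remaining NR2F genes did not pass in any comparison. The paralogue nr2f6a had 1093, 1187 and 1465 normalized reads in the unexposed control lineage, 1601 and 1399 at 0.002 mg/L, then 1872, 1321 and 1616 at 0.02 mg/L. The BPA lineage had 1498, 1479 and 1742, then 1335, 1315 and 1468, then 1327, 1455 and 962. The control groups overlapped, and the exposed libraries of the BPA lineage all lay below its unexposed ones. The interaction at 0.02 mg/L was -0.71 ± 0.26 (adjusted p = 0.0788), and passed without control 0.02 mg/L replicate 2 (0.0382). The sparse NR2F6 went from 27.6 ± 19.8 to 4.99 ± 5.87 normalized reads at 0.002 mg/L in the control lineage (-2.48 ± 0.74, adjusted p = 0.0616). It passed with all 18 libraries (0.0327) and without control 0 mg/L replicate 2 (0.0308), and was -3.71 without 0.002 mg/L replicate 1. The NR2F6 mean over all 18 libraries, 12.7, lay close above the filter level, and the unexposed control lineage had the highest group mean. The fall from that group and these calls were therefore not independent of the filter. The nr2f5 values stayed between 9.14 and 41.3 in all 17 libraries.

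The REV-ERB receptors of family NR1D bind haem and repress core clock genes. The REV-ERB beta gene nr1d2b had 3048, 3819 and 5217 normalized reads in the unexposed control lineage, 3078 and 3613 at 0.002 mg/L, then 2877, 3855 and 2506 at 0.02 mg/L. In the BPA lineage it had 2733, 2856 and 3430 at 0 mg/L, 3168, 3126 and 3157 at 0.002 mg/L, then 3868, 4799 and 6104 at 0.02 mg/L. The control groups overlapped, whereas all 3 BPA libraries at 0.02 mg/L lay above the other 6 of that lineage.

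The responses of nr1d2b differed between lineages at 0.02 mg/L by 1.07 ± 0.30 (95% interval 0.43 to 1.71, adjusted p = 0.0285, limma). The call was lost with all 18 libraries (0.163), with only the compared groups (0.0689), and without control 0 mg/L replicate 3 (0.0686), control 0.02 mg/L replicate 1 (0.0659) or 3 (0.0891), BPA 0 mg/L replicate 1 (0.0694) or 2 (0.0713) or BPA 0.02 mg/L replicate 2 (0.0554). The direct differences did not pass: -0.38 ± 0.22 in the control lineage (adjusted p = 0.241) and 0.69 ± 0.22 in the BPA lineage (adjusted p = 0.119). Its paralogue nr1d2a lay the other way, at 1333 ± 292 and 1808 ± 455 normalized reads in the control lineage and 1926 ± 337 and 1295 ± 587 in the BPA lineage at 0 and 0.02 mg/L, with an interaction of -1.11 ± 0.43 (adjusted p = 0.0921) that passed without control 0.02 mg/L replicate 2 (0.0425). The fish paralogues nr1d4a and nr1d4b did not pass: nr1d4b had 251 ± 25.6 normalized reads in the unexposed control lineage and 98.1 ± 49.0 at 0.02 mg/L (-1.50 ± 0.63, adjusted p = 0.117), and nr1d4a 64.9 ± 20.7 and 39.3 ± 11.2.

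**Figure D3:**
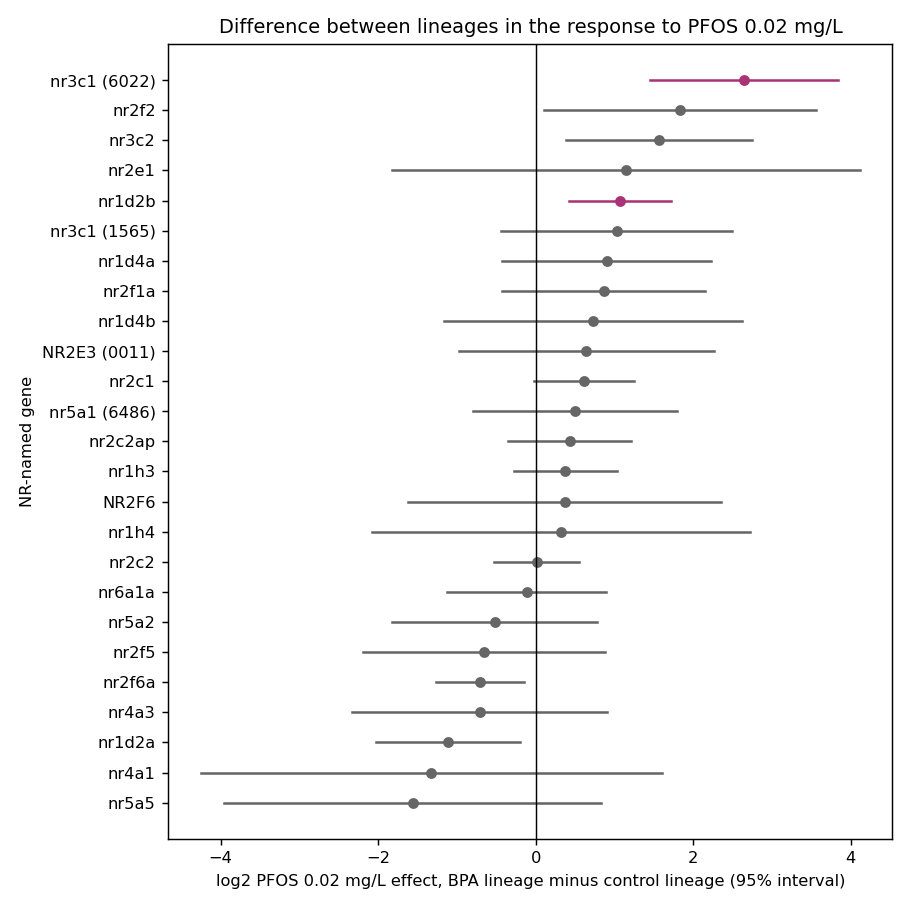
Difference between lineages in the log2 response to PFOS 0.02 mg/L (horizontal axis, BPA lineage minus control lineage) for each of the 25 genes (vertical axis), with a dot for the estimate and a line for its 95% interval, purple where the limma adjusted p was under 0.05. The 2 purple genes are nr3c1-6022 at 2.65 and nr1d2b at 1.07, and the intervals of nr2f2, nr3c2, nr2f6a and nr1d2a also leave out 0 without passing after adjustment.

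Of 25 other clock genes tested, 5 passed in any comparison. In the control lineage 1 was higher at 0.002 mg/L (4.59% of all genes passed, and 349 of 18792 were higher). At 0.02 mg/L 2 were higher and 3 lower there (12.8% of all genes passed, 6.67% lower). In the unexposed BPA lineage 2 were lower than in the control (5.97% of all genes). The interactions had 1 higher at 0.002 mg/L (0.899% of all genes passed) and 3 at 0.02 mg/L (7.89% higher). The core activator clockb had 849 to 1117 normalized reads in the unexposed control lineage and 201 to 625 at 0.02 mg/L, against 219 to 315 and 621 to 819 in the BPA lineage. Its interaction was 2.85 ± 0.44 (adjusted p = 0.00177) and passed in all 19 alternatives, whereas the one at 0.002 mg/L, 2.09 (adjusted p = 0.0485), was lost in 12 of 18. The output factor tefa gave 1.68 ± 0.32 (adjusted p = 0.00461), lost in 1 of the 19 alternatives, with all 18 libraries (0.192). The activator arntl2 gave 2.53 ± 0.71 (adjusted p = 0.0267), lost with all 18 libraries, with the compared groups alone, and without control 0 mg/L replicate 1 or 3, control 0.02 mg/L replicate 3, BPA 0 mg/L replicate 2 or BPA 0.02 mg/L replicate 2. The repressor cry1b was higher in the control lineage at both doses, by 0.75 ± 0.20 and 0.59 ± 0.18 (adjusted p = 0.0472 and 0.0434). Both calls were lost with all 18 libraries (0.345 and 0.292), without the filter, under TMM scaling, under the replicate block, with only the compared groups, and without control 0 mg/L replicate 1 or 3 or either library at 0.002 mg/L for the lower dose, or any 1 of the 6 libraries for the higher. The labels used here give no time of day of sampling.

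Family NR1H senses sterols: nr1h3, the oxysterol receptor LXR alpha, switches on cholesterol export, and nr1h4, the bile acid receptor FXR, is best known from liver, gut and kidney. The nr1h3 level held between 424 and 719 normalized reads in all 17 libraries, with log2 differences within the lineages of -0.25 to 0.15, each with an SE of 0.22 to 0.24. For nr1h4 the unexposed control libraries were far apart, at 222, 15.4 and 510, and the other 14 libraries had 18.3 to 101. The 2 high values were in replicates 1 and 3, where the pancreas, gut and kidney markers summed to 42417 and 42195, against 4817 in replicate 2. The kidney cotransporter slc12a3 had 23.6, 68.0 and 31800 normalized reads in replicates 1, 2 and 3, so the 2 high sums were made up differently. Of those 16 markers, 9 passed as lower at 0.02 mg/L in the control lineage, as did 6.67% of all genes. The nr1h4 difference there was -1.69 ± 0.80 (adjusted p = 0.159), which edgeR called and limma did not. Without control 0 mg/L replicate 2 nr1h4 passed in 4 comparisons, lower at both doses (-3.23 and -3.15) and in the unexposed BPA lineage (-2.05), with an interaction at 0.02 mg/L of 1.77. That fit keeps only the unexposed control libraries with the 2 high marker sums. Replicate 2, at 15.4, lay below all exposed control libraries, at 32.7 to 37.3 for 0.002 mg/L and 33.2 to 40.2 for 0.02 mg/L. In the BPA lineage nr1h4 had 101, 63.9 and 80.5 at 0 mg/L, above the 18.3 to 24.8 at 0.002 mg/L and the 24.8 to 34.5 at 0.02 mg/L, with differences of -1.81 ± 0.80 and -1.37 ± 0.80 that did not pass (adjusted p = 0.501 and 0.378). The same markers summed there to 1008 to 1582, 569 to 2004 and 701 to 859, and their part in these values was not tested.

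**Figure D4:**
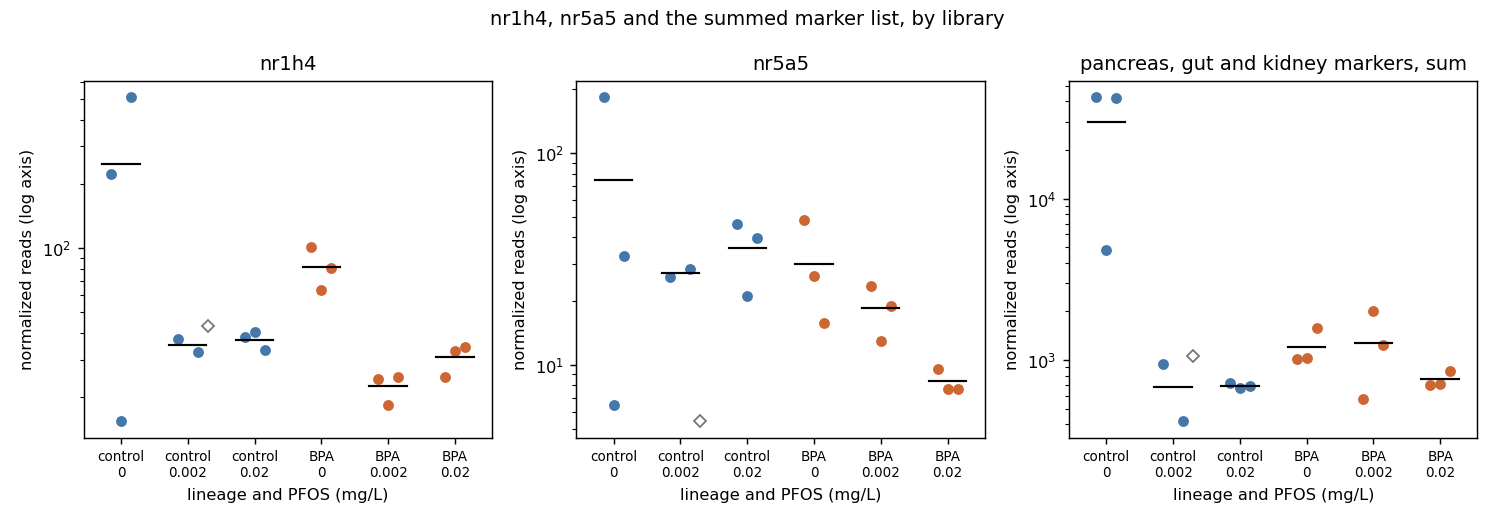
Normalized reads (vertical axes, log scale) of nr1h4, of nr5a5 and summed over 16 pancreas, gut and kidney markers, by lineage and PFOS dose in mg/L (horizontal axis), with a dot per library, a bar at the mean and an open diamond for the library set apart. In the unexposed control lineage nr1h4 has 222 and 510 in the libraries where the markers sum to 42417 and 42195, and 15.4 where they sum to 4817.

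Of 16 sterol-sensing genes tested, 3 passed in any comparison. In the control lineage 1 was lower at 0.002 mg/L (2.74% of all genes) and 2 at 0.02 mg/L (6.67%). In the unexposed BPA lineage 1 was lower than in the control (5.97%). The interaction at 0.02 mg/L had 2 higher and 1 lower, where 14.2% of all genes passed. The lipoprotein gene apoeb had 4322 to 9510 normalized reads in the unexposed control lineage and 540 to 4529 in the other 14 libraries, and it fell by 2.18 ± 0.50 at 0.02 mg/L (adjusted p = 0.0196), a call lost with all 18 libraries (0.114), and without control 0 mg/L replicate 1 or 0.02 mg/L replicate 1 or 3. The lipid regulator srebf1 had an interaction at 0.02 mg/L of 2.62 ± 0.65 (adjusted p = 0.0155), lost in 1 of the 19 alternatives, with all 18 libraries (0.0629). The cholesterol exporter abcg1 had an interaction of -1.63 ± 0.42 (adjusted p = 0.0192), opposite in sign to srebf1, lost with all 18 libraries (0.275), and without control 0 mg/L replicate 1, control 0.02 mg/L replicate 1 or 3, or BPA 0 mg/L replicate 1 or 2.

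Family NR4A are orphan receptors switched on within minutes to hours of a stimulus, as are the immediate-early genes. The nr4a1 gene had 7.0, 4.05 and 17.7 normalized reads in the unexposed control lineage, 45.7 and 69.5 at 0.002 mg/L, then 11.8, 7.06 and 22.9 at 0.02 mg/L. The 0.002 mg/L libraries were the highest of the 17, yet the difference of 2.65 ± 1.09 did not pass (adjusted p = 0.139), and the BPA lineage ranged from 0.701 to 37.1. For nr4a3 the values were 24.2, 41.3 and 49.2, then 56.2 and 28.5, then 34.3, 28.2 and 19.2 in the control lineage. In the BPA lineage nr4a3 had 63.3, 51.6 and 81.2, then 72.4, 42.6 and 50.8, then 51.9, 9.82 and 42.2. Its control groups overlapped each other, and it passed nowhere, with -1.16 ± 0.54 at 0.02 mg/L in the BPA lineage (adjusted p = 0.265).

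Of 20 immediate-early genes tested, 6 passed in any comparison, 4 of them higher at 0.002 mg/L in the control lineage, with a list median of 1.102. There 4.59% of all genes passed, and 349 of 18792 were higher. At that dose the transcription factor c-fos went from 35.0 to 82.4 normalized reads up to 2516 to 7982, a rise of 6.17 ± 1.37 (adjusted p = 0.0343). The fosb gene rose by 4.40 ± 1.01 (adjusted p = 0.0320). Both calls were lost without control 0 mg/L replicate 1 or 3 or either library at 0.002 mg/L, that of c-fos under the replicate block, and that of fosb with all 18 libraries (0.148) and with only the compared groups. Without PFOS c-fos was also higher in the BPA lineage than in the control, at 165 to 4751 normalized reads (4.18, adjusted p = 0.0480), a call lost in 9 of 13 alternatives. The growth-related factor klf6a rose by 0.91 ± 0.24 (adjusted p = 0.0435), a call lost with all 18 libraries (0.187), without the filter, under the replicate block, with only the compared groups, and without any 1 of the 5 libraries. At 0.02 mg/L, where 12.8% of all genes passed, 1 of the 20 was higher (c-fos) and 1 lower (ccn2a). The c-fos call there was lost with all 18 libraries, under the replicate block and without any 1 of the 6. That of ccn2a was lost with all 18 libraries and without control 0 mg/L replicate 1 or 3 or 0.02 mg/L replicate 3. In the interaction at that dose 1 was higher (atf3), as were 7.89% of all genes.

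Family NR5A regulates steroid synthesis, with nr5a1 encoding SF-1 and nr5a2 encoding LRH-1. The nr5a1 gene had 224, 141 and 165 normalized reads in the unexposed control lineage, 111 and 38.5 at 0.002 mg/L, then 70.5, 104 and 90.7 at 0.02 mg/L. Both exposed groups lay below all unexposed libraries, but the differences of -1.39 ± 0.48 and -0.98 ± 0.43 did not pass (adjusted p = 0.0896 and 0.132). The first was -2.01 with all 18 libraries, where it passed (0.0422), and -2.14 without 0.002 mg/L replicate 1. The BPA lineage spanned 61.5 to 167. For nr5a2 the control lineage had 149, 114 and 167 at 0 mg/L, 155 and 44.4 at 0.002 mg/L, then 188, 107 and 152 at 0.02 mg/L. The BPA lineage had 186, 192 and 287, then 118, 219 and 246, then 113, 140 and 236. The unexposed BPA libraries of nr5a2 lay above the unexposed control ones, a difference of 0.61 ± 0.44 that did not pass (adjusted p = 0.370), and within each lineage the doses overlapped. The fish gene nr5a5 had 183, 6.48 and 32.6 in the unexposed control lineage and 7.71 to 9.59 in the BPA lineage at 0.02 mg/L, below the 15.8 to 48.1 of that lineage without PFOS (-1.60 ± 0.80, adjusted p = 0.299).

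Of 12 genes of steroid synthesis and SF-1 targets, 4 passed in any comparison. At 0.002 mg/L in the control lineage 3 were lower (2.74% of all genes), inha, cyp17a2 and fshr, with a list median of -1.15. Their falls were 1.60 ± 0.43, 1.84 ± 0.50 and 1.41 ± 0.38 (adjusted p = 0.0449, 0.0489 and 0.0452), and each was lost without any 1 of the 3 unexposed libraries or 0.002 mg/L replicate 3. All 3 calls were also lost in edgeR (0.0683, 0.0819 and 0.0637), under the replicate block and with only the compared groups, and that of cyp17a2 with a pseudocount of 5 and without the filter. The Sertoli cell hormone amh had 22158 ± 5839 normalized reads in the unexposed control lineage and 9662 ± 4046 at 0.02 mg/L, against 7719 ± 682 and 20577 ± 3177 in the BPA lineage. Its interaction was 2.66 ± 0.36 (adjusted p = 0.00117), lost in 1 of the 19 alternatives, with all 18 libraries (0.0569). It also rose within the BPA lineage, by 1.41 ± 0.26 (adjusted p = 0.0450), a call lost with all 18 libraries, in edgeR, under the replicate block, with only the compared groups, and without BPA 0 mg/L replicate 1 or 2 or 0.02 mg/L replicate 2. The genes amh, inha and fshr are also among the 6 Sertoli cell markers tested, which summed to 50053 to 67649 normalized reads in the unexposed control lineage and 30780 to 50897 at 0.002 mg/L, with 0 at 0. Of 4 Leydig cell markers 0 passed at 0.002 mg/L (4.59% of all genes), with sums of 2575 to 3194 and 637 to 2507. The part of either cell type in these values was not tested.

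Families NR2C, NR2E and NR6A include receptors first described in testis, eye and germ cells. The TR4 gene nr2c2 was the steadiest member, at 706 to 1033 normalized reads over 17 libraries, a 1.46-fold range, and its log2 differences within the lineages were 0.18 ± 0.20 at most. The related TR2 gene nr2c1 had 667 to 1414 and nr2c2ap 315 to 713, and neither passed in any comparison. The photoreceptor receptor gene NR2E3 had 47.9 ± 32.6 in the unexposed control lineage and 13.3 ± 6.25 at 0.02 mg/L. It was called by edgeR but not by limma (-1.60 ± 0.54, adjusted p = 0.0605), except without control 0 mg/L replicate 3 (-2.18, adjusted p = 0.0333). The neural receptor gene nr2e1 was sparse, at 1.47 to 50.4 normalized reads.

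The germ cell nuclear factor gene nr6a1a, in the mouse a product of spermatids and oocytes, did not pass in any comparison. It had 199.9, 115 and 126 normalized reads in the unexposed control lineage, 152 and 147 at 0.002 mg/L, then 174, 269 and 153 at 0.02 mg/L. In the BPA lineage it had 256, 159.6 and 112, then 159.9, 209 and 203, then 169, 261 and 204. In each lineage both exposed groups overlapped the unexposed one.

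In the library set apart for its egg-coat transcripts, nr6a1a reached 2300 normalized reads, against 112 to 269 in the other 17. A further 5 members lay above all others there: nr2f6a with 5475 (others 962 to 1872), nr1d2b with 6379 (2506 to 6104), nr2c1 with 1915 (667 to 1414), nr2c2ap with 1194 (315 to 713) and nr3c2 with 478 (52.4 to 224). Another 9 lay below all others, among them nr5a1 with 17.6 (others 38.5 to 224). No reads of nr4a3, NR2F6 or nr2e1 were recovered there, which allows up to 3 reads each in that library by counting error alone. The 15 members outside the range of the others are 60% of the members, against 66.7% of all genes, 28.2% above and 38.5% below. The normalized total of that library was 36.9 M, against 20.2 to 24.6 M in the other 17. How far these positions depend on its size factor was not tested.

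**Figure D5:**
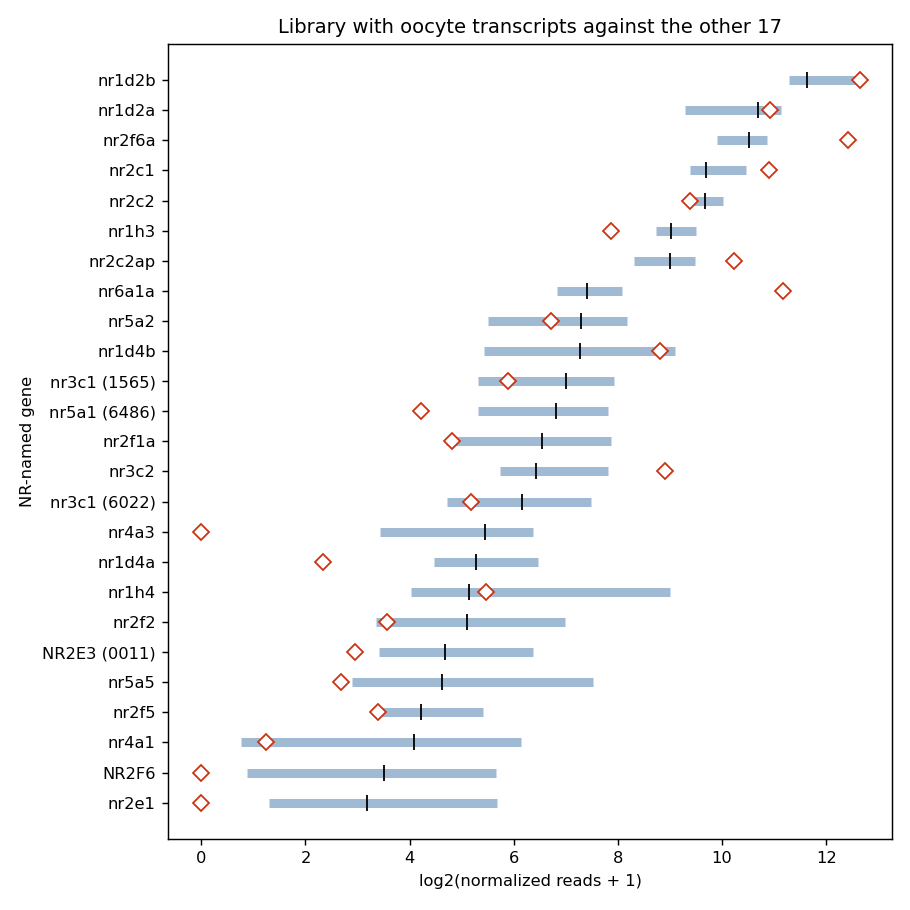
Level of each NR-named gene (vertical axis) as log2(normalized reads + 1) (horizontal axis), with a blue bar for the range of the 17 fitted libraries, a black tick for their median and a red diamond for the library set apart. The diamond of nr6a1a, at 2300 normalized reads, lies farthest to the right of its bar, which ends at 269.

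Other nuclear receptors without an NR symbol and the coregulators complete the picture. Of 21 such receptors tested, 4 passed in any comparison. In the control lineage 2 were lower at 0.002 mg/L (2.74% of all genes) and 2 at 0.02 mg/L (6.67%). In the unexposed BPA lineage 2 were lower than in the control (5.97%). In the BPA lineage at 0.02 mg/L 1 was higher, where 0.41% of all genes passed. The interactions had 1 higher at 0.002 mg/L (0.899% of all genes passed) and 2 at 0.02 mg/L (7.89% higher). The retinoid X receptor gene rxrbb had 1224 to 1499 normalized reads in the unexposed control lineage and 300.1 to 811 at 0.02 mg/L, against 325 to 564 and 1107 to 1355 in the BPA lineage. Its interaction was 3.07 ± 0.42 (adjusted p = 0.00117) and passed in all 19 alternatives, and it also rose within the BPA lineage, by 1.61 ± 0.30 (adjusted p = 0.0450), a call lost with all 18 libraries, in edgeR, under the replicate block, with only the compared groups, and without BPA 0 mg/L replicate 1 or 2 or 0.02 mg/L replicate 2. The rxrbb interaction at 0.002 mg/L, 2.02 (adjusted p = 0.0478), was lost in 12 of 18 alternatives. The fatty acid receptor gene ppard had an interaction of 1.39 ± 0.35 (adjusted p = 0.0165), lost with all 18 libraries (0.0783) and without control 0.02 mg/L replicate 3 or BPA 0 mg/L replicate 2. The estrogen receptor gene esr1 fell by 2.11 ± 0.58 at 0.002 mg/L in the control lineage (adjusted p = 0.0472), a call lost in edgeR (0.0683), without the filter, under the replicate block, with only the compared groups, and without any 1 of the 3 unexposed libraries or 0.002 mg/L replicate 3. The gut and liver receptor gene hnf4a ranged from 27.5 to 472 in the unexposed control lineage, the group with gut transcripts, and from 6.70 to 32.4 in the other 14. Its log2 difference at 0.02 mg/L in the control lineage, -2.40 ± 0.74 (adjusted p = 0.0439), was -0.53 with replicate 2 as the only unexposed control library, and did not pass with all 18 libraries (0.144), under the replicate block, with only the compared groups, or without control 0 mg/L replicate 1 or 3 or any 1 library at 0.02 mg/L.

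Of 27 coregulators tested, 3 passed in any comparison. In the control lineage 2 were lower at 0.02 mg/L (6.67% of all genes), and 2 were lower in the unexposed BPA lineage than in the control (5.97%). The interaction at 0.02 mg/L had 1 higher (7.89%). The corepressor subunit gene tbl1xr1b had an interaction at 0.02 mg/L of 2.83 ± 0.69 (adjusted p = 0.0141), lost in 1 of the 19 alternatives, with all 18 libraries (0.174). The coactivator gene ppargc1b fell by 1.17 ± 0.30 at 0.02 mg/L in the control lineage (adjusted p = 0.0240), a call lost with all 18 libraries (0.144), and without control 0 mg/L replicate 1 or 0.02 mg/L replicate 1 or 3. The coactivator gene carm1 was lower in the unexposed BPA lineage, with a log2 difference of -1.62 ± 0.49 (adjusted p = 0.0438), a call lost with all 18 libraries (0.147), and without any 1 of the control libraries or BPA replicate 1 or 2. Of 52 calls of the genes named from the 7 lists, 2 held in every alternative, the interactions of rxrbb and clockb at 0.02 mg/L. Control replicate 2 as the only unexposed control library makes a group of 1 library, so no calls of these genes are read from that fit. Genes of these lists were not picked independently of earlier results on these libraries.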

How the data were processed

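Testis RNA of 18 medaka libraries was sequenced. Per the labels' protocols, the Zymo Quick RNA/DNA Miniprep Plus kit gave total RNA and libraries were made by Novogene with the NEBNext Ultra II RNA kit. Tools named in the submitters' processing notes are DESeq2 1.34.0, STAR 2.7.7a and fastp 0.23.2. The sources used here name no read counter, strand setting, genome build or annotation, so overlapping genes and close paralogues are uncertain. The values deposited by the authors are a signal, gene reads divided by 1 size factor per library. Within a tolerance of 0.01, 100% of them were whole multiples of 1 read, which gave back reads per gene and depths of 23.7 to 47.7 M. A gene with few reads carries a counting error that deeper genes do not, and limits given for 0 reads cover counting error only.

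Genes with a mean of at least 10 over 18 libraries were kept (18792). log2(value + 1) was fitted with limma 3.58.1 (R 4.3.3) on 17 libraries, with robust moderation, an intensity trend and a mean for each of 6 groups. P-values (two-sided) were adjusted over all genes by Benjamini-Hochberg within each of 9 comparisons, with a threshold of 0.05. The filter and size factors still came from all 18 libraries. Labels call the replicates biological; if some share fish or tanks, the p-values measure that smaller spread.

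Alternatives were all 18 libraries, a pseudocount of 5, no filter, TMM scaling, edgeR 4.0.16 (quasi-likelihood) on the recovered reads, a block for the replicate number, only the groups compared, and each library left out in turn. Control replicate 2 as the only unexposed control library was added after seeing the data. The procedure was also run on simulated counts, and no result above rests on that run. Genes varied independently of each other in it, so it does not cover markers that differ together between libraries.

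Members that passed in any comparison and the member with the highest mean of each subfamily are given per library. Genes of the 7 lists are named up to 4 per list, those passing with the smallest p, except cell markers. The members nr4a1, nr5a1, nr5a5 and nr1h4 are given per library beyond this rule, after their values were seen. Members and lists were chosen with earlier results of these data known.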

Additional observations from a re-analysis of the deposited data

Results flagged for a closer look

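The response to PFOS 0.02 mg/L differed between the lineages for nr3c1-6022 by 2.65 and for nr1d2b by 1.07 on the log2 scale, by the interaction test of limma (adjusted p = 0.00771 and 0.0285). Groups of 3 libraries are too small for a search for single outlying samples.

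The library with egg-coat transcripts, which no comparison used, held 6 members above the range of the other 17: nr6a1a with 2300 normalized reads, nr2f6a with 5475, nr1d2b with 6379, nr2c1 with 1915, nr2c2ap with 1194 and nr3c2 with 478. Of all genes, 28.2% lay above that range. The normalized total of that library was 36.9 M, against 20.2 to 24.6 M in the other 17.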

How the results depend on the processing

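Over all 25 members, no value that passed, in the reported comparison or in an alternative, had the opposite sign in the other. Of 3166 alternative values of members that had not passed, 180 had the opposite sign without passing. In the 4 comparisons with any member called, 16 of 32 counts under alternatives other than leaving out 1 library stayed within 1.5 times, and in the 5 with none called 35 of 36 stayed at 0. With all 18 libraries the count went from 1 to 5 at 0.002 mg/L in the control lineage. It fell to 0 at 0.02 mg/L in that lineage, 0 between lineages at 0 mg/L and 1 in the interaction at 0.02 mg/L. Over all genes the calls went from 863 to 1476, 2409 to 13, 1927 to 4 and 2674 to 261 in these comparisons. Where the control lineage at 0.002 mg/L is not compared, the added library leaves each log2 difference unchanged. Only the estimated spread and the adjusted p change there. Without a filter the count of members was 0 at 0.02 mg/L in the control lineage, where 2234 of 22939 genes passed. With the compared groups alone it was 0, 0, 1, 1 and 1 for the control lineage at 0.002 and 0.02 mg/L, the lineages at 0 mg/L and the interactions at 0.002 and 0.02 mg/L. Over all 18792 genes that fit called 156, 1657, 1892, 1853 and 1507. Control replicate 2 as the only unexposed control library, chosen after seeing the data, makes a group of 1 library, so no count is given for that fit.

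With the replicate number as a block the counts were 0 and 0 for the 2 doses in the control lineage and 1 between lineages at 0 mg/L. Over all 18792 genes they were 261, 1640 and 1445. The labels do not say whether libraries with the same number share a tank, family or day. Residuals of 40 pairs with the same number correlated at -0.20 to 0.31 (median -0.03), and 1 of 17 libraries correlated best with its own number. Between the lineages at 0.02 mg/L, pairs with the same number correlated at 0.23, 0.31 and 0.09, against -0.25 to 0.05 for unlike numbers. A pairing at that dose was not tested.

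Leaving out 1 library gave 0 to 4 members at 0.002 mg/L and 0 to 1 at 0.02 mg/L in the control lineage, 0 to 3 between lineages at 0 mg/L, 0 to 2 and 1 to 4 in the interactions at 0.002 and 0.02 mg/L, and 0 in the other comparisons; a group left with 1 library was assumed to vary like the others. Of the same 3166 values 27 passed, spread over 12 members, with 5 each for nr1h4 and nr3c1-6022. Over all 18792 genes, leaving out 1 library gave 77 to 3114 calls at 0.02 mg/L in the control lineage. It gave 180 to 2776 between lineages at 0 mg/L and 1149 to 4016 in the interaction at 0.02 mg/L. Counts of the sparse members (nr2e1, NR2F6, nr4a1) are limited by depth.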
